A study of Mus musculus with 8 samples.

Results

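Fatty acid oxidation and ketone body handling in the liver were followed through 38 genes, picked by name for their place in these pathways. All 38 were measured, on 47 probes, among 19751 gene symbols on the array. Each member had a probe well above background on all 8 arrays, and all 38 were among the 15834 genes tested. The genes fall into 9 roles, which order the results.

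The samples were whole livers of 8 mice, 1 array per mouse, in 4 groups of 2 mice: AKP::Keap1 females, AKP females, AKP::Keap1 males and AKP males. AKP mice have liver-restricted expression of mutant p53 (R172H) together with an activated oncogene. AKP::Keap1 mice have these too and lack Keap1 in addition, so every mouse here had both alleles. The promoter that restricts the alleles to the liver and the ages of the mice are not given in the sources used here. The series asks how loss of Keap1, the adaptor that targets the transcription factor Nrf2 for degradation, acts on bile duct cancer driven by the oncogene and mutant p53.

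Fatty acids are joined to coenzyme A in the cytosol, handed to carnitine to cross the mitochondrial membranes, and shortened in a repeating cycle of oxidation, hydration, a further oxidation and cleavage that releases acetyl-CoA. Peroxisomes run a similar cycle on very long and branched chains, and hepatocytes turn surplus acetyl-CoA into ketone bodies for other organs. In mouse liver most of these genes are targets of the nuclear receptor PPAR alpha, which raises them in fasting.

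Levels are given as log2 of the processed signal minus the array's 75th percentile, so 0 is the level of the 75th percentile probe and a step of 1 is a doubling of signal. Between 64.7% and 69.8% of probes were well above background per array and 0 spots were saturated. Keap1 lay between -1.40 and -0.52 in the 4 AKP::Keap1 livers and between 1.68 and 2.14 in the 4 AKP livers. Whether its probe lies inside the deleted part of the gene is not given in the sources used here. Each of the 4 slides held 1 group, and the sexes were scanned on 2 different days, so slide and group cannot be told apart, nor can scan day and sex. The fits given below with slide as a random block had genotype and sex but no genotype by sex term. In those fits a genotype difference that varies by sex counts as spread between slides. With 2 mice per group, p-values rest on the spread between these mice alone.

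In livers without Keap1, most of the fatty acid oxidation and ketone body genes were lower as the mean over both sexes. The median over all 38 members was a 1.47-fold fall in signal. In females the members' median was -0.56 as fitted, -0.66 under quantile normalization and -0.45 without scaling. In males that median was -0.58, -0.36 and -0.069, so the size of the male fall depended on scaling. As fitted, male medians were -0.63 for hepatocyte markers and -0.60 for respiratory chain subunits, against -0.14 and 0.12 in females. No member was called in males under every setting tried. Over both sexes, 23 of the 38 genes fell, 1 rose and 14 were not called, at a limma p adjusted over all genes below 0.05. Of all genes tested, 17.2% were called lower and 21.8% higher. The median difference, AKP::Keap1 minus AKP, was -0.56 on the log2 scale over the members and -0.00 over all genes. The members give bright spots, with 24 of 38 among the 1584 genes of highest mean signal, and over those 1584 genes the median was -0.16 and 21.2% were called lower. In 19 members every AKP::Keap1 liver lay below every AKP liver, where 11.5% of all genes showed this, and in 1 member every AKP::Keap1 liver lay above, where 15.5% did. The 5 falls of Acadsb, Decr2, Acadl, Eci2 and Hadhb and the rise of Acox2 were called under each of the 18 other settings or left-out arrays tried. Without scaling between arrays the median of all genes moved by 0.31, and 5 members and 646 of all 15834 genes were called lower. With scaling to the array median that median moved by -0.25, and 32 members and 6372 of all genes were called lower. Both settings move every gene of an array by the same amount, so the members' median, 0.55 below that of all genes, keeps that gap by construction. The gap was -0.47 under quantile normalization and -0.41 with normexp background correction. Under quantile normalization 19 members and 2848 of all genes were called lower, and the calls of Acaa2, Acadm, Etfdh and Hsd17b4 ended.

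**Figure D1:**
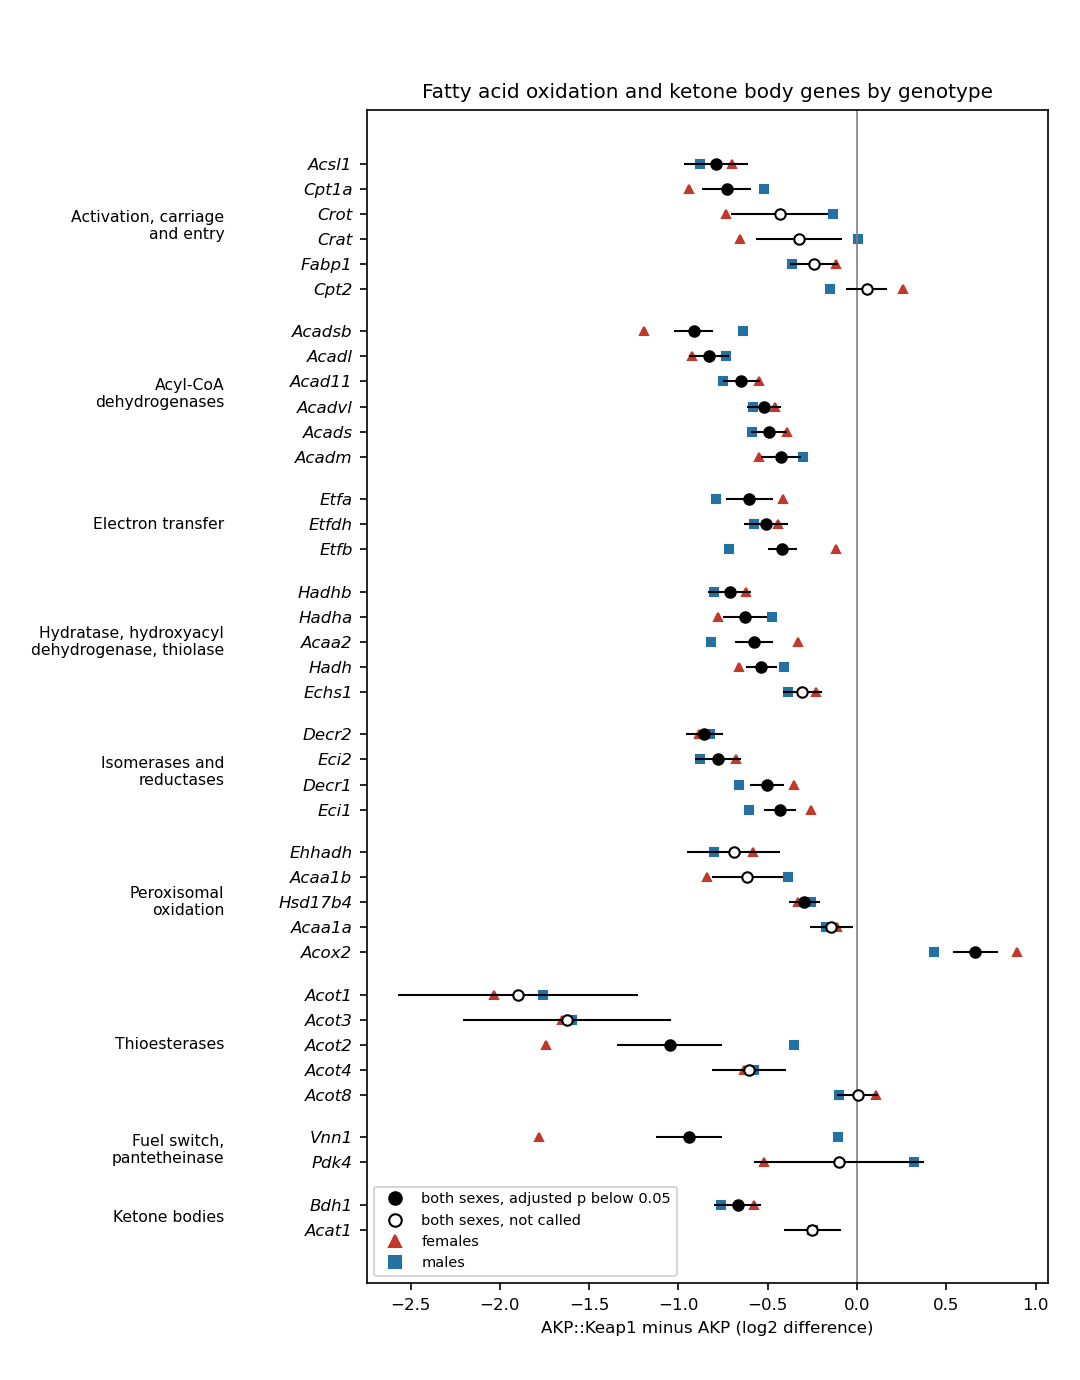
Genotype difference of the 38 genes, AKP::Keap1 minus AKP on the log2 scale, ordered by role and by size within a role. Circles with bars are the mean over both sexes with the standard error of the fit, filled where the adjusted p was below 0.05, and triangles and squares are the differences in females and in males; 35 of 38 circles lie left of 0, and Acox2 is the only filled circle to the right.

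At the first step, activation and entry into mitochondria, 2 of 6 genes fell, where 17.2% of all genes were called lower. Cpt1a encodes the carnitine palmitoyltransferase of the outer membrane that sets the pace of entry. Its level was 3.18 and 2.98 in AKP::Keap1 females, against 3.80 and 4.24 in AKP females, and 3.28 and 3.50 in AKP::Keap1 males, against 3.81 and 4.02 in AKP males. All 4 AKP::Keap1 livers lay below all 4 AKP livers, and the gap was wider in females. Cpt1a fell by 0.73 ± 0.14 over both sexes (standard error; adjusted p = 0.009), a 1.66-fold change. Acsl1, the main long-chain acyl-CoA synthetase of liver, read 5.89 and 5.62 in AKP::Keap1 females, against 6.25 and 6.67 in AKP females, and 5.80 and 5.31 in AKP::Keap1 males, against 6.65 and 6.22 in AKP males. The genotypes did not overlap, and the difference was -0.79 ± 0.18 (adjusted p = 0.017). That call ended without AKP male 1, AKP::Keap1 male 2, AKP female 2 or AKP::Keap1 female 2, at differences of -0.72 to -0.67 and adjusted p of 0.05 to 0.053.

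The other 4 entry genes were not called. Fabp1, the fatty acid binding protein of liver, differed by -0.24 ± 0.13 (adjusted p = 0.19). Crot, the peroxisomal octanoyltransferase, differed by -0.43 ± 0.27 (adjusted p = 0.24), and Crat, the acetyltransferase that buffers acetyl groups, by -0.32 ± 0.24 (adjusted p = 0.32). Cpt2, the inner-membrane partner of Cpt1a, stood at 0.05 ± 0.11 (adjusted p = 0.74) on its brighter probe and at -0.57 on its other probe, so its direction depends on the probe.

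All 6 acyl-CoA dehydrogenases fell, where 17.2% of all genes were called lower. These enzymes open each turn of the cycle and differ in the chain length they accept. Acadsb, which acts on short branched chains including those from isoleucine, read 0.43 and 0.10 in AKP::Keap1 females, against 1.54 and 1.37 in AKP females, and 0.20 and 0.09 in AKP::Keap1 males, against 0.84 and 0.73 in AKP males. The genotypes were apart in both sexes, and AKP females stood highest. Its difference was -0.91 ± 0.11 (adjusted p = 0.0025), a 1.89-fold fall. Acadl, the long-chain enzyme of rodent liver, read 2.30 and 2.10 in AKP::Keap1 females, against 2.96 and 3.28 in AKP females, and 1.98 and 1.83 in AKP::Keap1 males, against 2.59 and 2.69 in AKP males. Again no AKP::Keap1 liver reached an AKP liver, and Acadl fell by 0.83 ± 0.11 (adjusted p = 0.0033).

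Among the remaining dehydrogenases, Acad11 fell by 0.65 ± 0.10 (adjusted p = 0.0056). Acadvl, which takes very long chains, fell by 0.52 ± 0.10 (adjusted p = 0.0087), and Acads, which takes short chains, by 0.49 ± 0.10 (adjusted p = 0.012). The medium-chain enzyme Acadm changed least, with -0.43 ± 0.11 (adjusted p = 0.028). Its call ended without AKP male 1, AKP male 2, AKP::Keap1 male 2, AKP female 2 or AKP::Keap1 female 2, at differences of -0.46 to -0.34 and adjusted p of 0.053 to 0.08, and with slide as a random block (adjusted p = 0.081).

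The 3 genes that carry electrons from these dehydrogenases to the respiratory chain fell as well, where 17.2% of all genes were called lower. Etfa and Etfb are the subunits of the electron transfer flavoprotein. Etfa read 5.59 and 5.18 in AKP::Keap1 females, against 5.82 and 5.78 in AKP females, and 5.30 and 5.08 in AKP::Keap1 males, against 6.12 and 5.83 in AKP males. It fell by 0.60 ± 0.13 (adjusted p = 0.015), with no overlap of genotypes, and without AKP::Keap1 male 2 the difference was -0.55 with an adjusted p of 0.054. Etfb read 6.47 and 6.32 in AKP::Keap1 females, against 6.52 and 6.51 in AKP females, and 6.02 and 6.01 in AKP::Keap1 males, against 6.78 and 6.67 in AKP males. The female values lay close together while the males were clearly apart. Etfb fell by 0.42 ± 0.08 over both sexes (adjusted p = 0.01), a call that ended with slide as a random block (adjusted p = 0.095). Etfdh, which passes the electrons on to ubiquinone, fell by 0.51 ± 0.12 (adjusted p = 0.021), a call that ended without AKP male 1, AKP male 2, AKP female 2 or AKP::Keap1 female 2, at adjusted p of 0.052 to 0.064, and with slide as a random block (adjusted p = 0.055).

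Of the 5 mitochondrial genes for the hydration, second oxidation and cleavage steps, 4 fell, where 17.2% of all genes were called lower. Hadhb, the thiolase subunit of the trifunctional protein, read 4.30 and 4.06 in AKP::Keap1 females, against 4.60 and 5.0 in AKP females, and 4.05 and 4.0 in AKP::Keap1 males, against 4.84 and 4.81 in AKP males. It fell by 0.71 ± 0.12 (adjusted p = 0.0064), and the genotypes did not overlap. Hadh, the hydroxyacyl-CoA dehydrogenase for short chains, read 4.01 and 4.02 in AKP::Keap1 females, against 4.69 and 4.66 in AKP females, and 3.55 and 3.45 in AKP::Keap1 males, against 3.80 and 4.03 in AKP males. Within each sex the AKP::Keap1 livers were lower, but AKP::Keap1 females overlapped AKP males, as females stood higher in each genotype. The genotype difference of Hadh was -0.54 ± 0.09 (adjusted p = 0.006). Hadha, the other subunit of the trifunctional protein, fell by 0.63 ± 0.12 (adjusted p = 0.011), and the thiolase Acaa2 by 0.58 ± 0.11 (adjusted p = 0.0087). The call for Acaa2 ended under quantile normalization and without scaling between arrays. Echs1, the short-chain enoyl-CoA hydratase, was not called at -0.31 ± 0.11 (adjusted p = 0.067), although its 4 AKP::Keap1 livers lay below its 4 AKP livers.

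The isomerases and reductases deal with the double bonds of unsaturated fatty acids. They fell at 4 of 4 genes, where 17.2% of all genes were called lower. Decr2, the peroxisomal dienoyl-CoA reductase, read 2.47 and 2.25 in AKP::Keap1 females, against 3.16 and 3.34 in AKP females, and 2.08 and 1.85 in AKP::Keap1 males, against 2.82 and 2.77 in AKP males. Eci2, an enoyl-CoA isomerase, read 5.16 and 5.10 in AKP::Keap1 females, against 5.55 and 6.06 in AKP females, and 5.18 and 5.28 in AKP::Keap1 males, against 6.10 and 6.12 in AKP males. Both genes separated the genotypes in full, with Decr2 at -0.86 ± 0.10 (adjusted p = 0.0027) and Eci2 at -0.78 ± 0.13 (adjusted p = 0.006). Their mitochondrial relatives moved less, with Decr1 at -0.51 ± 0.10 (adjusted p = 0.0091) and Eci1 at -0.43 ± 0.09 (adjusted p = 0.013, but 0.059 with slide as a random block).

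**Figure D2:**
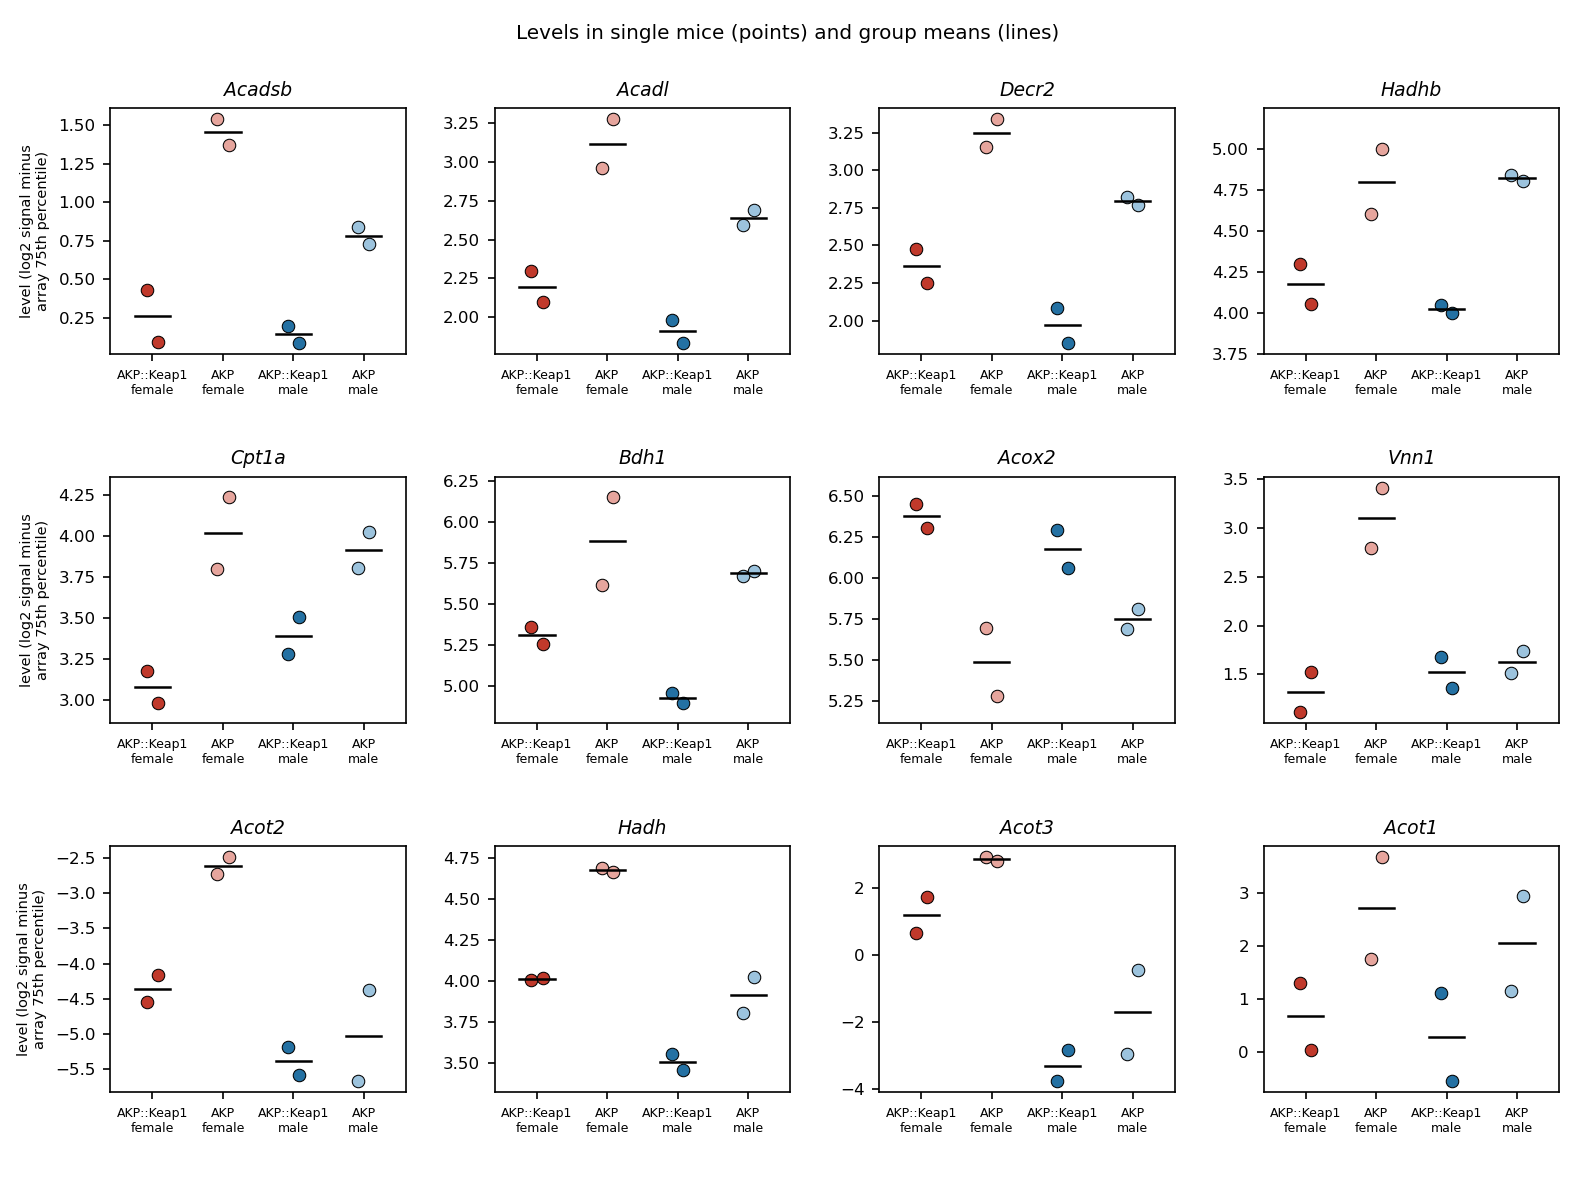
Levels of 12 genes in single mice (points) with group means (lines), in log2 units relative to each array's 75th percentile; each panel has its own vertical scale, and levels cannot be compared between panels because each gene has its own probe. Acadsb, Acadl, Decr2, Hadhb, Cpt1a and Bdh1 are lower and Acox2 is higher in all 4 AKP::Keap1 livers, Vnn1 is apart in females only, and the thioesterases Acot1 and Acot3 spread widely within a group.

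Among 5 genes of peroxisomal oxidation, 1 rose, 1 fell and 3 were not called, where 21.8% of all genes were called higher and 17.2% lower. The difference was negative in 4 of the 5. Decr2 and Eci2, both called lower, are counted with the isomerases and reductases above and not here. The gene that rose was Acox2, the oxidase for branched chains and the side chain of bile acid intermediates. It read 6.45 and 6.30 in AKP::Keap1 females, against 5.69 and 5.28 in AKP females, and 6.30 and 6.06 in AKP::Keap1 males, against 5.69 and 5.81 in AKP males. Every AKP::Keap1 liver was above every AKP liver. Acox2 rose by 0.66 ± 0.13 (adjusted p = 0.0096), a 1.58-fold change. Hsd17b4, the peroxisomal enzyme that hydrates and oxidises such chains, read 5.22 and 5.12 in AKP::Keap1 females, against 5.42 and 5.58 in AKP females, and 5.51 and 5.39 in AKP::Keap1 males, against 5.72 and 5.69 in AKP males. The genotypes were apart within each sex and overlapped between sexes. Hsd17b4 fell by 0.29 ± 0.09 (adjusted p = 0.037), but this call ended when any array but AKP female 1 was left out, at adjusted p of 0.058 to 0.12, and with slide as a random block (adjusted p = 0.11), and the difference was 0.015 without scaling between arrays.

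The 3 peroxisomal genes not called were Ehhadh, the other bifunctional enzyme, at -0.69 ± 0.26 (adjusted p = 0.079), and the thiolases Acaa1b at -0.61 ± 0.20 (adjusted p = 0.053) and Acaa1a at -0.14 ± 0.12 (adjusted p = 0.37). Acaa1a and Acaa1b are close paralogs, so their probes may share target RNA.

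Promoter sequence was read from RefSeq windows of assembly GRCm38.p6 that run from 250 bases before to 50 bases after a start, and 32 of the 38 genes had 36 such windows. They were searched on both strands for a direct repeat with a single base between its copies, the form that PPAR alpha binds with its partner RXR, and for the core of the antioxidant response element that Nrf2 binds with small Maf proteins. The repeat of AGGTCA was in 0 of the 36 windows and in 0.0396% of all 32851 windows. The repeat of AGGNCA, which includes that of AGGTCA, was in 2.78% of the member windows, all of it Fabp1, and in 0.381% of all windows. The Nrf2 core TGACNNNGC was in 6 of the 36 member windows (16.7%) and in 12.4% of all windows. Those windows belong to 4 of the 32 genes, Acox2, Fabp1, Ehhadh and Acot3. Acox2 and Acot3 have overlapping windows that hold the same site, so the share by window counts these sites more than once. The stretches with a match are printed 5′ to 3′ on the strand of the gene, 150 bases each, with the matches in capitals: Acox2 as the gene that rose (chr14:8259020-8259169, minus strand), Fabp1 as the gene with both motifs (chr6:71199729-71199878, plus strand), Ehhadh (chr16:21787935-21788084, minus strand) and Acot3 (chr12:84051994-84052143, plus strand).
Acox2: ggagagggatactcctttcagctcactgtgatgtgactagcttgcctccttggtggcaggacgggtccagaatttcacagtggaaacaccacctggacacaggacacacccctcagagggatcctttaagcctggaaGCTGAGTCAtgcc
Fabp1: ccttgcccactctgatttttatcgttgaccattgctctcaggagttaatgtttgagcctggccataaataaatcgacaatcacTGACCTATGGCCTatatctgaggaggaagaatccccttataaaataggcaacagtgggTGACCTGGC
Ehhadh: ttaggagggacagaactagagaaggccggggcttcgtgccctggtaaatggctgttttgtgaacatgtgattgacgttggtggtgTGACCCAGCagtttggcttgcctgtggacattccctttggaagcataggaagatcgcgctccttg
Acot3: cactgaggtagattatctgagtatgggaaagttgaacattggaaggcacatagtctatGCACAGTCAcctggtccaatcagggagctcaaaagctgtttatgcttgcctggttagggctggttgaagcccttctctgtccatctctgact
In Acox2 and Acot3 the Nrf2 core lies on the opposite strand, where it reads TGACTCAGC in Acox2 and TGACTGTGC in Acot3. The repeat in Fabp1 also lies on the opposite strand, where it reads AGGCCATAGGTCA. A match is a run of letters and not a shown binding site, and matches outside these windows were not looked for.

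The acyl-CoA thioesterases, which release free fatty acid and coenzyme A, gave the largest differences and the widest spread. Of the 5, 1 was called lower, where 17.2% of all genes were. Acot2, the mitochondrial form, read -4.55 and -4.17 in AKP::Keap1 females, against -2.73 and -2.49 in AKP females, and -5.18 and -5.57 in AKP::Keap1 males, against -5.66 and -4.38 in AKP males. The females were apart and the males overlapped. Acot2 fell by 1.05 ± 0.29 (adjusted p = 0.033), a call that held without AKP male 1 or AKP male 2 but ended without any of the other 6 arrays, at adjusted p of 0.057 to 0.096, and with slide as a random block (adjusted p = 0.12). Acot4, a peroxisomal form, read 0.66 and 0.72 in AKP::Keap1 females, against 1.15 and 1.50 in AKP females, and -0.80 and -0.69 in AKP::Keap1 males, against -0.61 and 0.28 in AKP males. It was lower in AKP::Keap1 livers of each sex, but the difference of -0.60 ± 0.21 was not called (adjusted p = 0.061).

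Acot1, the cytosolic form, differed by -1.90 ± 0.67 (adjusted p = 0.067), its 4 AKP::Keap1 livers spanning -0.54 to 1.31 and its 4 AKP livers 1.15 to 3.67. Acot3, another peroxisomal form, differed by -1.63 ± 0.58 (adjusted p = 0.069). Acot8, a peroxisomal enzyme of a separate family, showed 0.00 ± 0.12 (adjusted p = 0.99) on its brighter probe and -0.25 on the other. Acot1, Acot2, Acot3 and Acot4 are neighbours on chromosome 12 and alike in sequence, so their probes may share target RNA and their differences are not independent of each other.

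Vnn1, a pantetheinase that frees the vitamin part of coenzyme A and a known PPAR alpha target in mouse liver, was lower in AKP::Keap1 females. It read 1.12 and 1.53 in AKP::Keap1 females, against 2.79 and 3.41 in AKP females, and 1.68 and 1.36 in AKP::Keap1 males, against 1.51 and 1.74 in AKP males. AKP females stood alone above the other 6 livers. Vnn1 fell by 0.94 ± 0.18 over both sexes (adjusted p = 0.01), with -1.78 ± 0.26 in females (adjusted p = 0.0093) and -0.10 ± 0.26 in males (adjusted p = 0.78). With slide as a random block, a fit without a genotype by sex term, the call over both sexes ended (adjusted p = 0.12). The female difference minus the male difference was -1.68 ± 0.37, which was not called (adjusted p = 0.078) but was with another background correction (adjusted p = 0.038) and with a variance trend and robust variance set together (adjusted p = 0.046). Pdk4, the kinase that shuts pyruvate dehydrogenase when fat is burned, read 0.54 and -1.54 in AKP::Keap1 females, against 0.40 and -0.37 in AKP females, and -1.12 and -1.85 in AKP::Keap1 males, against -1.77 and -1.83 in AKP males. Its genotypes overlapped in both sexes, and the difference was -0.10 ± 0.47 (adjusted p = 0.88), a standard error too wide to tell a fall from a rise.

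Of the ketone body enzymes measured here, Bdh1, which interconverts acetoacetate and hydroxybutyrate, read 5.36 and 5.26 in AKP::Keap1 females, against 5.62 and 6.15 in AKP females, and 4.95 and 4.89 in AKP::Keap1 males, against 5.67 and 5.70 in AKP males. All AKP::Keap1 livers were below all AKP livers. Bdh1 fell by 0.67 ± 0.13 (adjusted p = 0.011), and its other probes gave -0.74 and -0.99. Acat1, the mitochondrial thiolase that joins and splits acetoacetyl-CoA, read 4.04 and 3.63 in AKP::Keap1 females, against 3.85 and 4.33 in AKP females, and 3.73 and 3.41 in AKP::Keap1 males, against 3.85 and 3.79 in AKP males. The genotypes overlapped in females, and the difference was -0.25 ± 0.16 (adjusted p = 0.25).

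The probe chosen bore on the size of several differences. Of 8 members with more than 1 probe, 6 had the same sign on all of them and 2, Cpt2 and Acot8, did not. The dimmer probe gave the larger difference for Acsl1 (-1.67), Cpt1a (-1.51), Etfa (-1.01) and Acot3 (-2.76, on a probe above background on 7 of 8 arrays), while both Decr1 probes gave -0.51.

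Around the members, a list of 70 other genes of fatty acid uptake, activation, oxidation and ketone body use was divided. Of the 69 tested, 23 fell (33.3%), 11 rose (15.9%) and 35 were not called over both sexes, with a median of -0.26. Of all genes tested, 17.2% were called lower and 21.8% higher. Among genes that rose, Oxct1, the transferase with which tissues other than hepatocytes use ketone bodies, lay between 0.94 and 1.49 log2 units above AKP over the settings tried and at 1.18 ± 0.13 as fitted (adjusted p = 0.0019). Slc16a1, a carrier of lactate and ketone bodies, rose by 1.06 ± 0.10 (adjusted p = 0.0015), with 0.46 under normexp background correction and up to 1.37 without scaling. Cd36, a fatty acid uptake protein, rose by 0.88 ± 0.10 (adjusted p = 0.0023). Acsm1, a medium-chain acyl-CoA synthetase, rose by 0.69 ± 0.08 (adjusted p = 0.0023), while its relative Acsm3 fell by 0.64 ± 0.09 (adjusted p = 0.0034). Without scaling Acsm1 stood at 1.0 and Acsm3 at -0.33, no longer called. Abcd2, a peroxisomal carrier of very long chains, fell by 1.42 ± 0.22 (adjusted p = 0.0048). Slc27a2, a very long chain acyl-CoA synthetase, fell by 0.80 ± 0.11 (adjusted p = 0.0034), and Acot12, a cytosolic thioesterase for acetyl-CoA, by 0.66 ± 0.08 (adjusted p = 0.0031), with -0.49 and -0.35 without scaling.

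Within each sex the members were mostly lower in AKP::Keap1 livers. In females 11 members fell and 1, Acox2, rose, where 9.1% of all genes were called lower and 12.3% higher, and the median over members was -0.56. In males 15 fell and 0 rose, where 11.5% of all genes were called lower and 16.7% higher, and the median was -0.58. The difference was negative in both sexes for 33 members and positive in both for Acox2. Acadl, Acadsb, Acad11, Hadhb, Eci2 and Decr2 were the 6 called lower in each sex. How the medians of the sexes compare depended on the scaling: they were -0.66 in females and -0.36 in males under quantile normalization, -0.45 and -0.069 without scaling, and -0.69 and -0.94 with the array median.

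Respiratory chain subunits, also mitochondrial, had a median of 0.12 in females, where 0 of 46 were called lower and 1 higher (2 lower at an unadjusted p below 0.05), and of -0.60 in males, where 28 of 46 were called lower. Hepatocyte markers such as albumin had a median of -0.14 in females, with 2 of 19 called lower, and of -0.63 in males, with 11 of 19 called lower. The 1584 brightest genes had a median of 0.02 in females, 4.92% called lower, and of -0.35 in males, 23.9% called lower. Under quantile normalization the hepatocyte markers had medians of -0.080 in females and -0.22 in males, and the respiratory chain of 0.029 in females and -0.30 in males. No difference between these lists was tested.

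**Figure D3:**
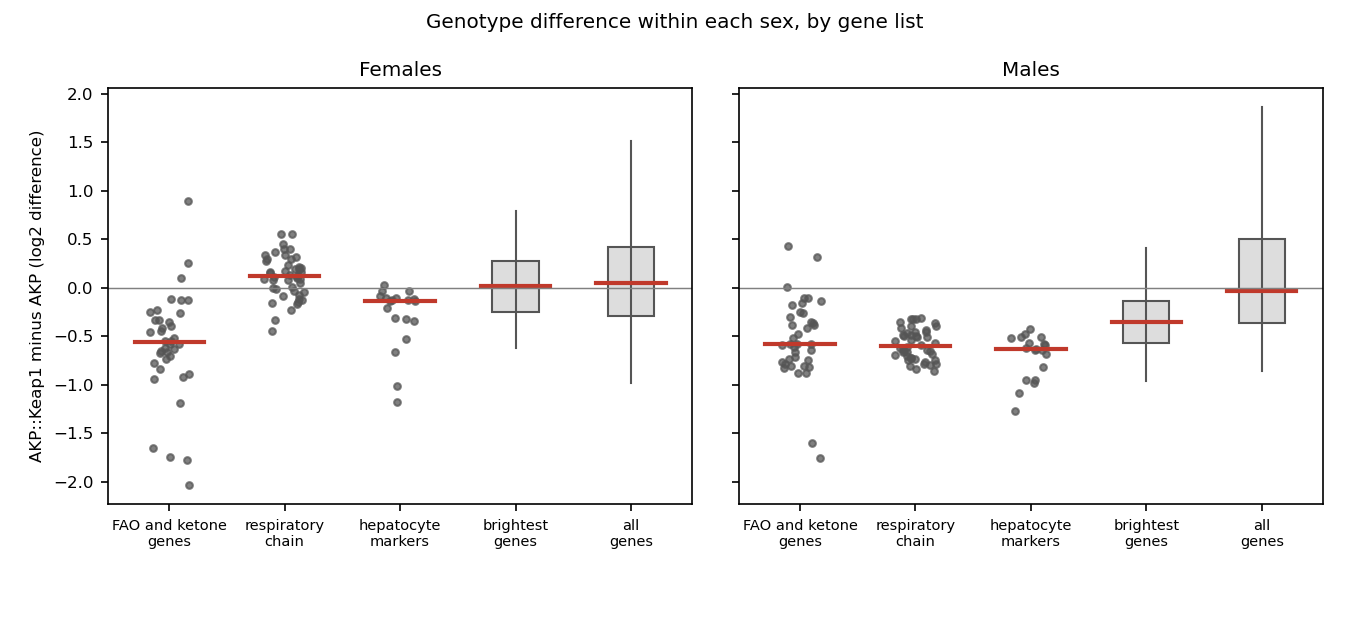
Genotype difference within females and within males, AKP::Keap1 minus AKP on the log2 scale, for the 38 fatty acid oxidation and ketone body genes, 46 respiratory chain subunits and 19 hepatocyte markers (points), beside the 1584 brightest genes and all 15834 genes (boxes, quartiles; whiskers, percentiles 5 and 95). Red lines are medians; the first list is near -0.56 in females and -0.58 in males, and the respiratory chain is at 0.12 in females and -0.60 in males.

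Counts within a sex depended on single mice. In females the 11 falls became 2 when either AKP female 2 or AKP::Keap1 female 2 was left out and 5 when AKP::Keap1 female 1 was. They became 6 when either AKP::Keap1 male was left out, since males enter through the shared spread. In males the 15 became 2 when either AKP male was left out, 3 when AKP::Keap1 male 1 was and 0 when AKP::Keap1 male 2 was. They became 2 under quantile normalization, where 1453 of 15834 genes were called lower. Acadsb and Vnn1 were called in females under every setting tried, and no member was in males. The difference between the sexes was tested directly and 0 members were called by limma in either direction, where 1.31% of all genes were called lower and 0.411% higher. At an unadjusted p below 0.05, 2 members were lower and 1 higher. The median of the female difference minus the male difference was 0.09 over members, 0.72 over respiratory chain subunits, of which 46 of 46 were positive and 0 were called, and 0.45 over hepatocyte markers, of which 0 of 19 were called.

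Markers of hepatocytes and of other cells moved with genotype in the same livers. Their calls are over both sexes, where 17.2% of all genes were called lower and 21.8% higher. The mean level of 19 hepatocyte markers lay between 6.60 and 6.93 in the AKP::Keap1 livers and between 7.02 and 7.44 in the AKP livers, and 8 of 19 fell. The mean of 16 biliary markers lay between -0.80 and -0.12 in AKP::Keap1 livers, against -3.26 to -2.57 in AKP livers, and 12 rose and 1 fell. Leukocyte markers, 15 in all, averaged -0.52 to -0.01 in AKP::Keap1 livers, against -1.89 to -0.88 in AKP livers, and 9 rose. Stromal and endothelial markers, 16 in all, averaged 0.62 to 0.97 in AKP::Keap1 livers, against 0.32 to 0.72 in AKP livers, and 6 rose and 6 fell. The members' own mean level lay between 2.97 and 3.59 in AKP::Keap1 livers and between 3.53 and 4.22 in AKP livers. In whole liver, fewer cells of a type and less RNA per cell cannot be told apart, and the part of cell makeup in the members' differences was not tested.

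Females and males differed at a few members, among them 3 of the 5 thioesterases. As the mean over both genotypes, 8 members were higher in females and 0 lower, where 10.9% of all genes were called higher and 10.3% lower in females. At an unadjusted p below 0.05, 13 were higher and 1 lower, and the median female minus male difference was 0.12. In 4 members, Acot3, Acot4, Crat and Ehhadh, every female liver lay above every male liver, where 6.01% of all genes showed this, and in 0 members every female liver lay below, where 6.93% did.

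Acot3 differed most. It read 0.67 and 1.75 in AKP::Keap1 females and 2.92 and 2.81 in AKP females, against -3.75 and -2.85 in AKP::Keap1 males and -2.96 and -0.45 in AKP males. No male reached a female. Acot3 was higher in females by 4.54 ± 0.58 (adjusted p = 0.0081), a 23.2-fold difference, and its other probe, above background on 7 of 8 arrays, gave 5.13. Acot4, whose mouse values are above, was higher in females by 1.46 ± 0.21 (adjusted p = 0.0098), and Hadh by 0.63 ± 0.09 (adjusted p = 0.0094), although AKP::Keap1 females and AKP males met for Hadh.

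The other 5 were Acot2 at 1.71 ± 0.29 (adjusted p = 0.016), Crat at 1.56 ± 0.24 (adjusted p = 0.012), Ehhadh at 1.46 ± 0.26 (adjusted p = 0.018), Decr2 at 0.42 ± 0.10 (adjusted p = 0.038) and Acadsb at 0.40 ± 0.11 (adjusted p = 0.049). The last of these ended without any array but AKP::Keap1 female 2, at adjusted p of 0.075 to 0.14, and that of Decr2 without any array, at 0.054 to 0.12. The call for Acot2 ended without AKP::Keap1 male 2 (adjusted p = 0.055) and that for Ehhadh without AKP male 1 (adjusted p = 0.057), and the count became 5 without either of these males. With slide as a random block 6 of the 8 calls ended, at adjusted p of 0.053 to 0.21, and 2 remained, Acot3 and Acot4, which were called under every setting tried. The spots of Acot2 and Crat were dim. Acot2 read -5.66 in AKP male 1, where the dimmest probe well above background on that array read -6.61. Over the settings tried the smallest sex difference was 0.78 for Acot2 and 0.81 for Crat.

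**Figure D4:**
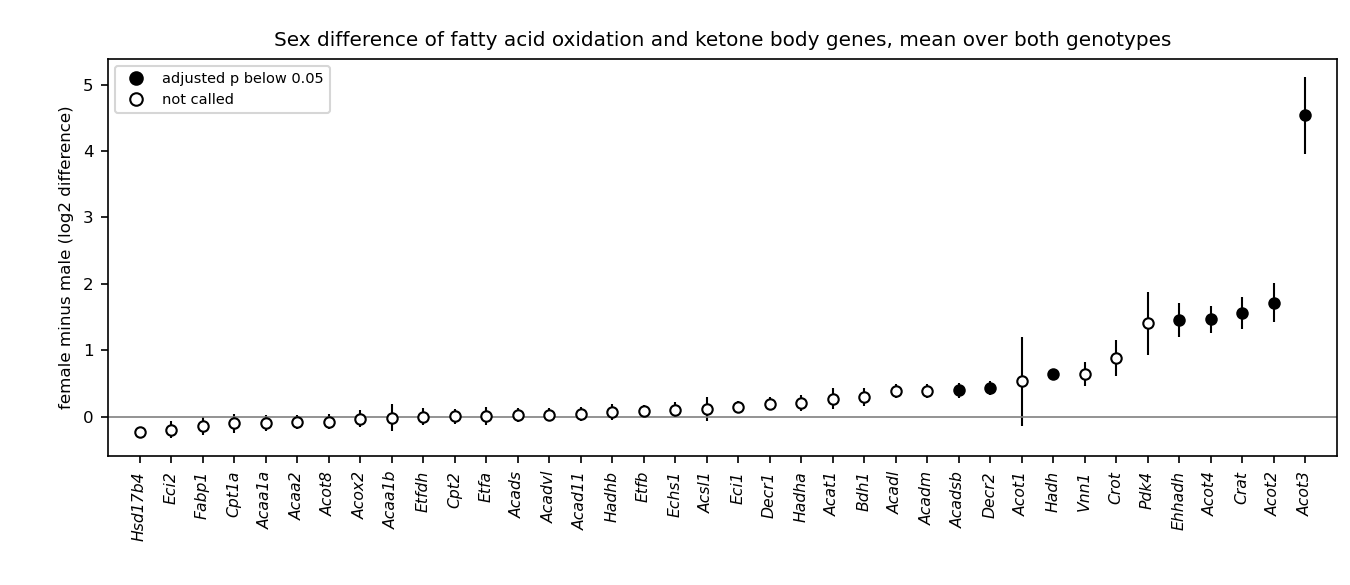
Sex difference of the 38 genes, female minus male on the log2 scale as the mean over both genotypes, ordered by size, with bars for the standard error of the fit and filled circles where the adjusted p was below 0.05. Acot3 stands at 4.54, 7 more filled circles lie between 0.40 and 1.71, and 10 of 38 circles lie below 0.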

How the data were processed

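Whole liver RNA of 8 mice was measured, 1 array per mouse; per the labels' protocols, amplification started from 500 ng and the dye was Cy3. Values in the deposited scanner files are linear intensity, background-subtracted by Agilent Feature Extraction, 10.7.3.1 per the file headers (array design 026655, mm9 annotation) and 10.1 per the submitters' processing notes. Control spots and outlier spots were left out and spots of a probe averaged. Of 39429 probes, 26055 were named through RefSeq accessions (assembly GRCm38.p6). Log2 intensity minus each array's 75th percentile was tested with limma 3.58.1 in R 4.3.3, with 1 mean per group over 8 arrays and Benjamini-Hochberg adjustment over 15834 genes, two-sided. Probes had to be well above background on 2 or more of the 8 arrays, and a gene is represented by its brightest probe.

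Members and gene lists were chosen with earlier results of these data known. Values per mouse are given for the 2 members of each role with the smallest adjusted p by genotype and the 3 smallest by sex; other pathway genes are the 4 rises and 4 falls with the smallest adjusted p, and some genes are not reported here. For a background alternative, normexp with offset 50 was run on median spot and median background signals. The fit was tested on simulated data. The number of arrays limits precision.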

Additional observations from a re-analysis of the deposited data

How the results depend on the processing

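Settings were tried on the member counts one after another; the variance trend was set together with robust variance, and normexp was run on median signals with an offset of 50. Over both sexes the 23 falls became 5 without scaling between arrays, where 646 of 15834 genes were called lower. Leaving out 1 array gave 18 to 25 falls, and the rise stayed at 1 in each case. With array-median scaling the falls were 17 in females and 27 in males, where 2182 and 6522 of 15834 genes were called lower. The interaction then had 1 member (Etfb) and 930 of all genes higher, and the sex comparison 1 member and 2765 of all genes lower. Under quantile normalization males had 2 falls and 1 rise, where 1453 of all genes were called lower and 1761 higher. Without scaling females had 5 falls, males 0 falls and 1 rise, and the sex comparison 5 higher and 1 lower. Over all genes these were 655 falls in females, 170 falls and 5404 rises in males, and 614 higher and 3075 lower by sex. With only the 4 female arrays females had 3 falls and 0 rises, where 529 of all genes were called lower and 701 higher. Normexp background and a variance trend with robust variance each gave 1 member lower in the interaction (Vnn1). Over all genes these gave 162 and 262 lower. With slide as a random block (within-slide correlation 0.23) 2 members were higher in females and 16 fell by genotype. Over all genes 160 were higher in females and 1174 fell by genotype in this fit. That fit had no genotype by sex term and each slide held 1 group. Its within-slide correlation therefore cannot be told apart from genotype differences that vary by sex. Leaving out 1 array gave 2 to 11 falls and 0 to 1 rises in females, 0 to 15 falls in males, and 5 to 8 members higher in females. The cause of these changes was not tested, except that leaving out arrays leaves fewer mice.

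Same-numbered mice of different groups deviated together at correlations of -0.16 to 0.12. Taken over all genes, these gave no sign of pairing by replicate number, but would not show a pairing that touches few genes. With replicate number as a block 24 members fell over both sexes, 8 in females and 14 in males, and 8 were higher in females. The counts over all genes were 2381, 1229 and 1396 lower, and 1408 higher in females.

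Signs of single genotype differences over both sexes turned for Fabp1 (0.0081 with quantile normalization, 0.068 unscaled), Echs1 (0.0031 unscaled), Acaa1a (0.17 unscaled), Hsd17b4 (0.015 unscaled), Acat1 (0.059 unscaled) and Pdk4 (0.21 unscaled, -0.62 to 0.42 with 1 array left out). Cpt2 turned to -0.19 with the array median, -0.054 with normexp and -0.26 as the mean of its probes, and ranged from -0.024 to 0.13 with 1 array left out. Acot8 turned to -0.24, -0.011 and -0.12 under the same settings and ranged from -0.097 to 0.10 with 1 array left out. Of the 23 falls, 22 kept their sign under all 18 settings and 17 were called whichever array was left out.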
